A study of Caenorhabditis elegans with 8 samples.

Results

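The 10 genes described here encode regulators of stem cell division and meiotic entry in the germ line of Caenorhabditis elegans, with 3 that act on stored or capped germ line messengers (cgh-1, car-1 and ife-1). Their RNA was followed across 4 strains and 2 RNAi treatments. The genes were glp-1, fbf-1, fbf-2, gld-1, gld-2, gld-3, nos-3, cgh-1, car-1 and ife-1. They were taken from a given list by gene symbol, and each of the 10 was matched by 1 feature among the 27792 features of the array, of which 25546 carried exactly 1 symbol. RefSeq's WBcel235 annotation lists them as F02A9.6, H12I13.4, F21H12.5, T23G11.3, ZC308.1, T07F8.3, Y53C12B.3, C07H6.5, Y18D10A.17 and F53A2.6. It places gld-1, gld-2 and car-1 on chromosome I, fbf-1, fbf-2, gld-3 and nos-3 on chromosome II, and glp-1, cgh-1 and ife-1 on chromosome III.

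As background, the somatic cell at the tip of the gonad holds nearby germ cells in division through the Notch receptor GLP-1. The RNA-binding proteins FBF-1 and FBF-2 act beneath GLP-1 and repress messengers that drive meiosis, gld-1 among them. Meiotic entry is promoted by 2 arms, in which GLD-1 and NOS-3 repress translation while GLD-2 and GLD-3 lengthen poly(A) tails. The helicase CGH-1 and its partner CAR-1 package and protect stored messengers of the germ line and oocytes, and IFE-1 is a cap-binding protein needed for efficient sperm and oocyte production. Much of this control acts on translation and protein, which arrays of RNA do not measure.

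Total RNA from worms grown to the young adult stage was measured on an Affymetrix gene array of the ST 1.0 kind, with 1 array for each of 8 groups. The groups were N2, VP303, NR350 and TU3401, each kept at 20 °C and given either control RNAi or RNAi of ash-2 from the egg on, over 3 days. The ASH-2 protein belongs to the machinery that adds methyl groups to histone H3. The labels give as the RNAi site the whole body of N2, the intestine of VP303, the muscle of NR350 and the neurons of TU3401. From general knowledge of these strains and not from the labels, N2 is the wild type, and VP303 and NR350 are rde-1 mutants in which a transgene restores the Argonaute RDE-1 from the nhx-2 promoter in the intestine and the hlh-1 promoter in muscle. TU3401 is likewise a sid-1 mutant in which the unc-119 promoter restores the double-stranded RNA channel SID-1 in neurons, and each of these 3 strains also carries a transformation marker. No label names a dissection or sort, and 12 of 12 germ cell markers had a mean log2 level above 5.

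The arrays had median intensities between 21.1 and 21.6, on a linear scale whose lower end lies near 18. All 10 genes had a mean log2 level above 5, as did 31.1% of all features. With 1 array per group, the strains are the only repeats of the treatment and the treatments the only repeats of a strain. No label names separate cultures, so p-values measure the spread between these arrays and may be technical. The signal of the RNAi target ash-2 was 1.22-fold to 1.85-fold higher in the array labelled ash-2 in all 4 strains, against the direction of a knockdown. Treated arrays are therefore called the arrays labelled ash-2, and the sign of each treatment difference follows the labels as given. The mean log2 difference of ash-2 itself, 0.63, did not pass over all features (limma adjusted p = 0.302). Of all features 7.72% were likewise higher in all 4 strains. In whole animals, fewer germ cells and less RNA per germ cell cannot be told apart.

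**Figure D1:**
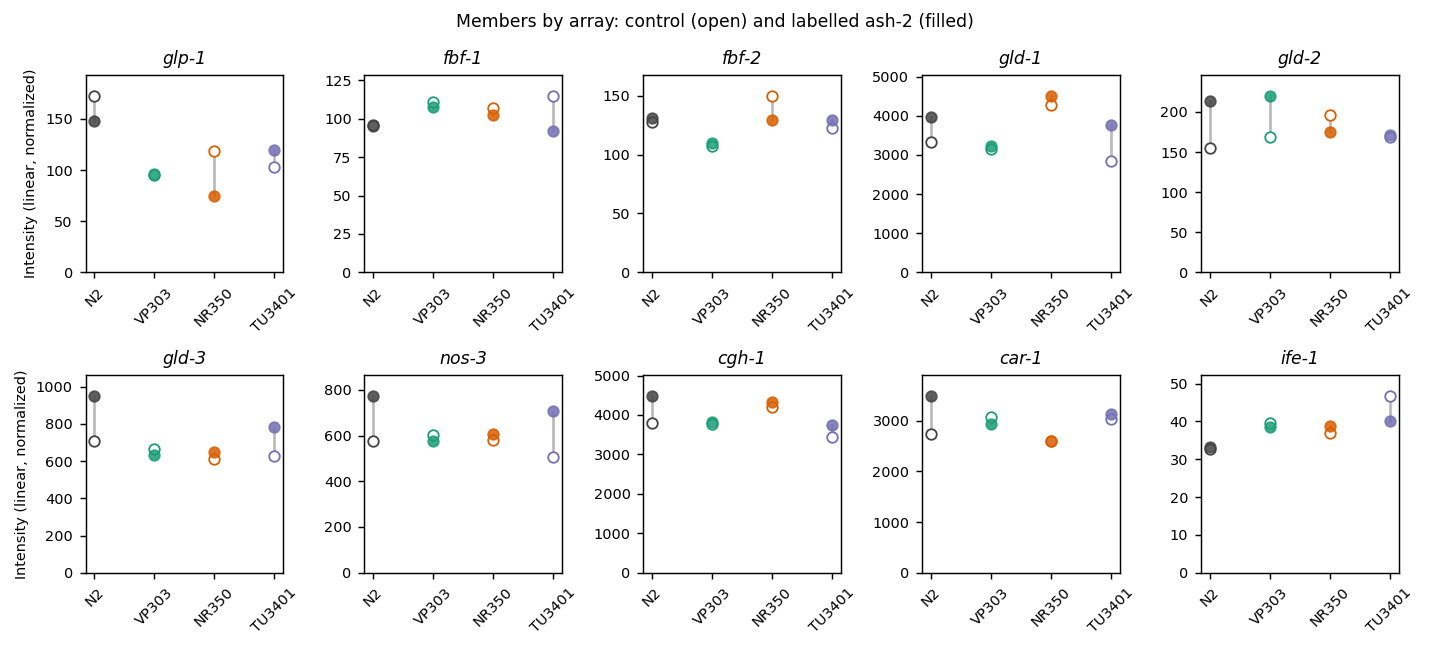
Normalized intensity (linear scale from 0) of the 10 genes on each of the 8 arrays, with strains on the horizontal axis, open points for control and filled points for the array labelled ash-2. The glp-1 signal was highest on both N2 arrays (173 and 148) and gld-1 on both NR350 arrays (4285 and 4512).

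The first comparison asked whether ash-2 RNAi changed these genes in the same way in the 4 strains. None of the 10 passed the test, by limma with strain as a block and Benjamini-Hochberg adjustment over all features at 0.05. Over all features 0% passed too. At an unadjusted p under 0.05 in the same limma fit there was 1 of the 10, gld-1, against 7.99% of all features. The median mean difference was 0.09 over the 10 genes and 0.03 over the 8648 features with a mean log2 above 5, on the log2 scale.

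The Notch receptor gene glp-1 had intensities of 173 on control and 148 on the array labelled ash-2 in N2, 95.4 and 96.3 in VP303, 118 and 74.7 in NR350, and 103 and 120 in TU3401. The treated array was thus lower in N2 and NR350 and higher in VP303 and TU3401, and the ranges of the 2 treatments overlapped. The largest of these differences, 1.58-fold lower in NR350 (log2 -0.66), was the one member difference past 1.5-fold in any strain. In NR350, 1.08% of all features and 3.25% of those with a mean log2 above 5 lay past 1.5-fold in either direction, and in N2, VP303 and TU3401, where no member did, 1.49%, 1.17% and 1.68% of all features. No gene of the 10 reached 2-fold in any strain, which 0.353%, 0.363%, 0.144% and 0.137% of all features reached in N2, VP303, NR350 and TU3401, taken in that order. The mean log2 difference of glp-1 was -0.17 ± 0.38 (SD, n = 4 strains, limma adjusted p = 0.798), with a 95% confidence interval from -0.47 to 0.14.

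The PUF-family repressor genes fbf-1 and fbf-2, close relatives in sequence, varied within narrower bounds. Between control and the array labelled ash-2, fbf-1 had 95.7 and 95.5 in N2, 111 and 107 in VP303, 107 and 102 in NR350, then 115 and 91.7 in TU3401. It was lower in 4 of 4 strains, as were 8.34% of all features, and its difference was near 0 in all but TU3401. The values of fbf-2 went from 128 to 131 in N2, 107 to 110 in VP303, 150 to 129 in NR350 and 122 to 130 in TU3401. The mean log2 difference was -0.11 ± 0.15 for fbf-1 (interval -0.34 to 0.12) and -0.01 ± 0.13 for fbf-2 (interval -0.25 to 0.22), with limma adjusted p of 0.822 and 0.983. Over the 8 arrays the log2 levels of the pair had Pearson's r = -0.37. No other feature of the array matched either of them within 0.05 (log2) on every array. That rule finds only features at the same level, so it cannot show whether either feature picks up some RNA of the other gene.

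Of the meiosis-promoting genes, gld-1, which encodes a STAR-family translational repressor, was higher in 4 of 4 strains, as were 7.72% of all features. Its intensity went from 3321 to 3960 in N2, 3151 to 3235 in VP303, 4285 to 4512 in NR350 and 2855 to 3758 in TU3401. The difference was larger in TU3401 (1.32-fold) and N2 (1.19-fold) than in NR350 (1.05-fold) and VP303 (1.03-fold), and the treatments overlapped across strains. The mean log2 difference was 0.19 ± 0.17 (interval 0.05 to 0.34), which did not pass over all features (limma adjusted p = 0.531).

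The gene gld-2, which encodes a cytoplasmic poly(A) polymerase, went from 155 to 214 in N2, 169 to 220 in VP303, 197 to 175 in NR350 and 169 to 172 in TU3401. N2 and VP303 are the strains whose labelled RNAi site includes the intestine. Their mean log2 difference for gld-2 was 0.42, against -0.07 for the muscle and neuron strains, the widest such gap among the 10 genes. That gap of 0.50 (SE 0.22, interval 0.01 to 0.99) did not pass in limma (adjusted p = 0.861), nor did that of any other member, and 0% of features passed. At an unadjusted p under 0.05 the class contrast of limma had 1 member, gld-2, against 5.74% of all features.

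Its cofactor gene gld-3, of the Bicaudal-C family, went from 710 to 950 in N2, 667 to 634 in VP303, 609 to 648 in NR350 and 629 to 784 in TU3401. The Nanos-family gene nos-3, partner of the other arm, went from 578 to 773 in N2, 604 to 576 in VP303, 580 to 606 in NR350 and 506 to 708 in TU3401. Both genes were higher by at least 0.317 (log2) in N2 and TU3401 and differed by less than 0.10 in VP303 and NR350. The mean log2 difference was 0.19 ± 0.22 for gld-3 (interval -0.04 to 0.42, limma adjusted p = 0.7) and 0.23 ± 0.27 for nos-3 (interval -0.02 to 0.48, adjusted p = 0.673). Whether N2 and TU3401 respond differently from VP303 and NR350 was not tested.

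Among the genes of stored messenger particles, the helicase gene cgh-1 went from 3789 to 4481 in N2, 3775 to 3825 in VP303, 4198 to 4323 in NR350 and 3445 to 3753 in TU3401. It was higher in 4 of 4 strains by a mean log2 difference of 0.11 ± 0.10 (interval -0.01 to 0.23, limma adjusted p = 0.678). Its partner car-1, an LSm14-family gene, went from 2747 to 3491 in N2, 3074 to 2935 in VP303, 2597 to 2595 in NR350 and 3031 to 3129 in TU3401. Outside N2 the car-1 differences were within 0.07 of 0, and the mean was 0.08 ± 0.18 (interval -0.08 to 0.24, limma adjusted p = 0.808). The cap-binding gene ife-1 was dim, from 32.6 on the N2 control array to 46.7 on the TU3401 control array, near the lower end of the scale. Its mean log2 difference was -0.04 ± 0.13 (interval -0.22 to 0.14, limma adjusted p = 0.93).

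**Figure D2:**
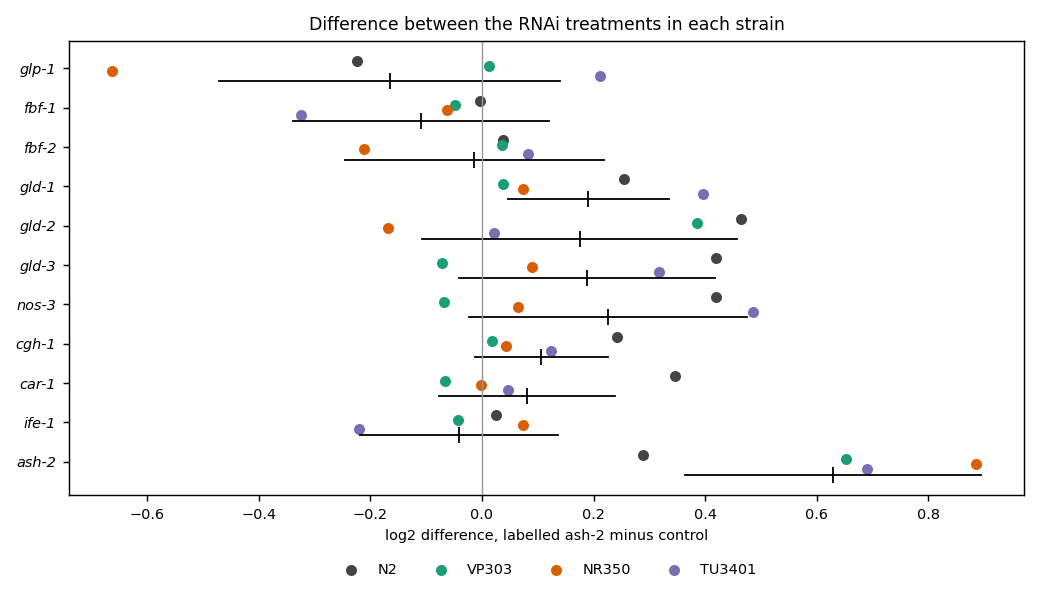
Difference between the array labelled ash-2 and the control array (log2, horizontal axis) for the 10 genes and ash-2, with 1 coloured point per strain and a black line for the mean and its 95% confidence interval from limma. The interval of gld-1 (0.05 to 0.34) lies above 0 but gld-1 did not pass after adjustment, and the NR350 point of glp-1 (-0.66) stands lowest.

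The remaining genes of the pathway were read from lists of 17, 12, 19 and 13 measured genes, and none passed the limma test of the treatment. In the Notch and stem cell list 11 of 17 had a mean difference above 0 (median 0.08), from 0.36 ± 0.35 for lag-1, the DNA-binding effector of Notch signalling, to -0.36 ± 0.15 for the Nanos gene nos-1. Among partners of the GLD and NOS proteins 9 of 12 lay above 0 (median 0.16), with the La-related RNA-binding gene larp-1 highest (0.46 ± 0.14, limma adjusted p = 0.31) and fog-2, a GLD-1 cofactor, lowest (-0.04 ± 0.05). The median of that list was 0.31 in N2 and 0.31 in TU3401 but 0.01 in VP303 and -0.01 in NR350. Of the messenger particle and cap-binding genes 8 of 19 lay above 0 (median -0.03), from 0.28 ± 0.22 for the eIF4G gene ifg-1 to -0.23 ± 0.31 for the LSm gene lsm-4. Of 13 messengers known to be bound by GLD-1, 7 lay above 0 (median 0.03), from 0.21 ± 0.18 for the sex determination gene tra-2 to -0.24 ± 0.13 for the caudal homologue pal-1. The median of all features was -0.003, and that of features with a mean log2 above 5 was 0.03.

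The second comparison set the strains against each other, each by its pair of arrays, in the same limma model. Of the 60 member differences over 6 pairs of strains, 3 passed the test, glp-1 in 1 pair and gld-1 in 2, and all 3 involved NR350. Lower glp-1 in NR350 than in N2 was 1 of 10 members called there, against 7.18% of all features (3.16% lower) and 17.9% of those with a mean log2 above 5. In NR350 against VP303, gld-1 was the 1 member called, against 5.18% (2.84% higher) and 13.1%, and in TU3401 against NR350 it was again 1 of 10, against 6.74% (4.53% lower) and 16.3%. No member was called in the other 3 pairs, where 0.64% (VP303 against N2), 0.604% (TU3401 against N2) and 1.6% (TU3401 against VP303) of all features were. With 0 or 1 of 10 called in each pair, the members do not stand out from that background.

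The glp-1 level stood highest on both N2 arrays, 173 and 148, and no array of another strain exceeded 120. It was 1.70-fold lower in NR350 than in N2 (log2 -0.77, SE 0.20, limma adjusted p = 0.0397). The differences of VP303 (-0.74, SE 0.20, adjusted p = 0.178) and TU3401 (-0.52, SE 0.20, adjusted p = 0.239) had the same sign and did not pass, and no difference among VP303, NR350 and TU3401 passed. Fitted without a variance trend, the NR350 difference did not pass (limma adjusted p = 0.159). On the control arrays alone NR350 was lower than N2 by a log2 difference of -0.55, and on the arrays labelled ash-2 by -0.99. The call rested on few arrays: without the NR350 array labelled ash-2 the difference was -0.44 (limma adjusted p = 0.43). Without the N2 control array the adjusted p was 0.249, without the N2 array labelled ash-2 0.158, without the VP303 control array 0.0512 and without the VP303 array labelled ash-2 0.0517. Markers of early embryos, carried by gravid adults, were also highest on both N2 arrays by summed signal. Of those 7 markers 4 averaged under 32. The summed intensity of the 7 was 268 and 301 in N2 and between 168 and 229 in the other strains. Below N2, the embryo sum was highest in TU3401 (229 and 220), then VP303 (216 and 216), and lowest in NR350 (180 and 168). The mean log2 level of glp-1 had the same order, at 6.80, 6.58 and 6.55. Its NR350 arrays (118 on control and 74.7 labelled ash-2) lay on either side of both VP303 arrays (95.4 and 96.3). The part of these markers in the glp-1 difference was not tested.

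The gld-1 level was highest on the NR350 arrays, 4285 and 4512, above all 6 arrays of the other strains (2855 to 3960). It was 1.38-fold higher in NR350 than in VP303 (log2 0.46, SE 0.09, limma adjusted p = 0.0151) and 1.34-fold higher than in TU3401 (log2 of TU3401 minus NR350 -0.42, SE 0.09, adjusted p = 0.02). Against N2 the difference of 0.28 (SE 0.09) did not pass (limma adjusted p = 0.111), and no difference among N2, VP303 and TU3401 passed. Without a variance trend neither gld-1 difference passed (limma adjusted p = 0.11 against VP303 and 0.107 against TU3401). The limma adjusted p for NR350 against VP303 was 0.182 without the VP303 array labelled ash-2, 0.181 without the NR350 control array and 0.0519 without the NR350 array labelled ash-2. For TU3401 against NR350 it was 0.234, 0.0555 and 0.178 without the NR350 control array, the NR350 array labelled ash-2 and the TU3401 control array.

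**Figure D3:**
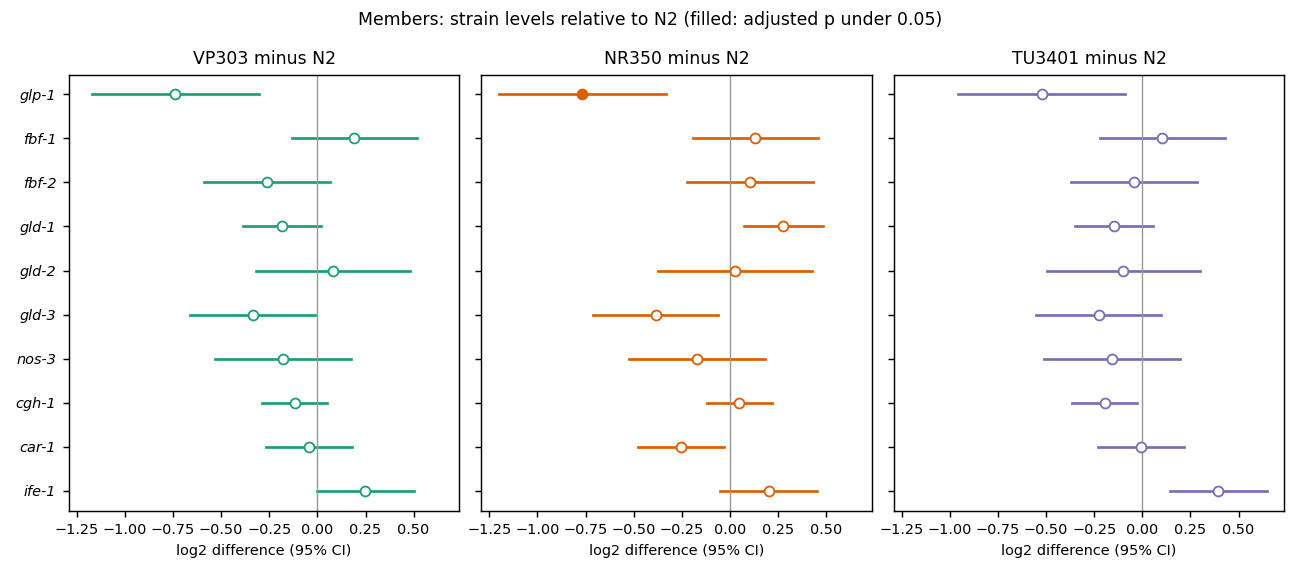
Log2 difference of VP303, NR350 and TU3401 from N2 for the 10 genes, with points for the limma estimate over the 2 arrays of each strain, lines for the 95% confidence interval and filled points for an adjusted p under 0.05. The glp-1 estimates lie at -0.74, -0.77 and -0.52, and the NR350 point of glp-1 is the one filled.

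No other member passed in any pair. The helicase gene cgh-1 was lower in TU3401 than in NR350 by -0.24 (SE 0.08, limma adjusted p = 0.0887), with TU3401 values of 3445 and 3753 under the NR350 values of 4198 and 4323. The gene gld-3 was lower than in N2 by -0.39 in NR350 (SE 0.15, adjusted p = 0.166 in limma) and -0.34 in VP303 (adjusted p = 0.511). The gene car-1 was lowest on the NR350 arrays, 2595 and 2597, at -0.25 from N2 (SE 0.10, limma adjusted p = 0.19). The gene fbf-2 was lowest on the VP303 arrays, 107 and 110, and 0.36 higher in NR350 (SE 0.15, interval 0.04 to 0.69, limma adjusted p = 0.238), with values that did not overlap. The dim ife-1 was lowest in N2 and 0.40 higher in TU3401 (SE 0.11, limma adjusted p = 0.147). For fbf-1, gld-2 and nos-3 the estimates over the 6 pairs stayed within 0.19, 0.18 and 0.18 of 0, with limma adjusted p of at least 0.749, 0.697 and 0.684. The 2 arrays of one strain did not overlap those of the other in 29 of the 60 member differences. Against N2 these were 6 of 10 members for VP303 (39.2% of all features), 6 for NR350 (47.5%) and 3 for TU3401 (44.1%). They were 5 for NR350 against VP303 (46.1%), 4 for TU3401 against VP303 (43.9%) and 5 for TU3401 against NR350 (47.8%).

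Markers of other tissues also differed on the NR350 arrays, where 17.9% of features with a mean log2 above 5 were called against N2. Of these markers, 7 of 9 body wall muscle markers were higher and 0 lower than in N2 in limma (median 1.09), among them the myosin genes unc-54 (2.86-fold) and myo-3 (2.70-fold), while the muscle regulator hlh-1 differed by -0.05 (adjusted p = 0.87). Without a variance trend the unc-54 call was lost (limma adjusted p = 0.0759). The summed muscle signal was 6487 and 7506 in NR350 and 3287 to 4225 in the other strains. Intestine markers were higher in 7 of 9 and lower in 0 (median 0.77), with a summed signal of 3628 and 3690 against 2177 to 2708. The gut regulator elt-7 differed by 0.04 (limma adjusted p = 0.936). Without a variance trend the ges-1 and pho-1 calls were lost (limma adjusted p of 0.0949 and 0.121). Meiotic prophase genes were lower in 4 of 21 and higher in 0 (median -0.24), among them the recombination initiator spo-11 (1.79-fold lower), dsb-2, cosa-1 and syp-3. All 21 had a mean log2 above 5, so that this share is near the background of such features, and without a variance trend cosa-1 passed but spo-11, dsb-2 and syp-3 did not (limma adjusted p of 0.0457, 0.104, 0.0535 and 0.108). Of 12 germ cell markers 1, the Piwi gene prg-1, was higher (1.69-fold) and 0 were lower. Early embryo markers were lower in 3 of 7, tbx-38 by 2.61-fold. In bulk RNA the number of cells and the RNA per cell cannot be told apart here either, and the part of these markers in the gld-1 and glp-1 differences was not tested.

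**Figure D4:**
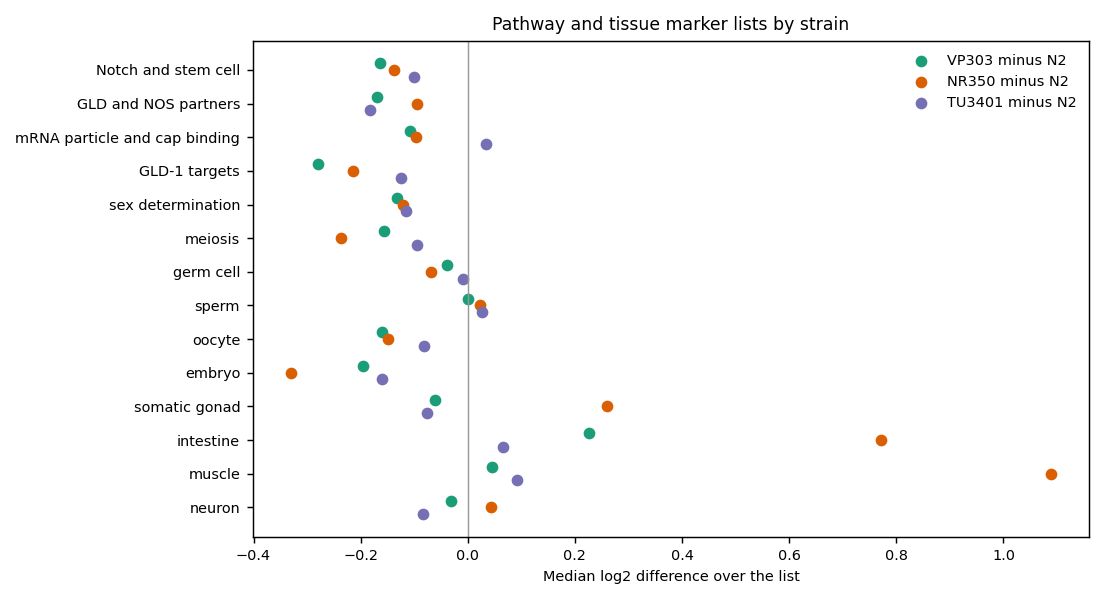
Median log2 difference of VP303, NR350 and TU3401 from N2 (points, horizontal axis) over each list of pathway genes and tissue markers. In NR350 the muscle median is 1.09 and the intestine median 0.77. Those of the Notch and stem cell genes, the GLD partners, the particle genes and the GLD-1 targets lie between -0.21 and -0.09. The median over all features with a mean log2 above 5 was -0.08 for NR350 minus N2.

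Within the pathway lists a few genes separated the strains in limma. The Y-box gene cey-3, whose product associates with stored germ line messengers, was lower in NR350 than in N2 (1.49-fold, adjusted p = 0.0134), VP303 (1.41-fold, adjusted p = 0.0349) and TU3401 (1.66-fold, adjusted p = 0.00443). The zinc finger gene oma-2, a GLD-1 target needed for oocyte maturation, was lower than in N2 in VP303 (1.48-fold) and NR350 (1.41-fold), with adjusted p of 0.0237 and 0.0105, and at a like size in TU3401 it did not pass (1.40-fold, limma adjusted p = 0.0534). The VP303 call for oma-2 was lost under quantile normalization, without a variance trend (adjusted p = 0.106) and with a robust prior. Without a trend the cey-3 calls were lost in all 3 pairs (limma adjusted p of 0.0825, 0.137 and 0.0524). The eIF4E gene ife-3 (1.33-fold), the decay factor gene lsm-1 (1.54-fold), the Nanos gene nos-2 (1.42-fold) and gna-2 (1.53-fold), a GLD-1 target that makes precursors of the eggshell, were higher in TU3401 than in NR350. In that pair larp-1 was 1.43-fold lower in TU3401, at a limma adjusted p of 0.0498. The PUF gene puf-5, which acts in oocytes, was 1.38-fold higher in TU3401 than in VP303 (adjusted p = 0.046), a limma call lost without a trend (adjusted p = 0.103), with a robust prior and without NR350. The larp-1 call was lost without N2 or VP303, and the ife-3 call with a robust prior and without VP303, with adjusted p up to 0.0682 and 0.0559 in limma. The lsm-1, nos-2 and gna-2 calls and the NR350 call for oma-2 held under the alternatives that kept all arrays or left out a strain. Every call named in this paragraph was lost on leaving out at least 1 single array. In all, 1 of 17 stem cell genes, 1 of 12 partners, 3 of 19 particle genes and 1 of 13 GLD-1 targets were called between TU3401 and NR350, against 6.74% of all features and 16.3% of those with a mean log2 above 5, which nearly all of these genes have.

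The 10 genes did not share 1 pattern over the 8 arrays, which are described here by Pearson's r of log2 levels with no test, since arrays of a strain share their animals' background. The values of gld-3 and nos-3 had r = 0.89 and those of gld-1 and cgh-1 r = 0.86, while fbf-1 and nos-3 had r = -0.76. Among 7998 features with 1 symbol and a mean log2 above 5, nhl-2, which encodes a TRIM-NHL protein, was most like gld-1 (r = 0.99), followed by dlat-1, a subunit gene of pyruvate dehydrogenase (r = 0.97). The nhl-2 signal was 384 and 420 in NR350 and between 203 and 319 elsewhere. Most like glp-1 were snpc-1.4 (r = 0.98) and ctnb-1 (r = 0.97), and ctnb-1 had 283 and 239 in N2 against 170 to 218 elsewhere. Most like cgh-1 were fcd-2 and R04E5.8 (r = 0.97 and 0.96). The mean of the 10 genes was most like the yolk protein gene vit-5, Y79H2A.3 and adm-2, with r of 0.96, 0.95 and 0.95. With so many features searched over 8 arrays, high r values arise easily.

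**Figure D5:**
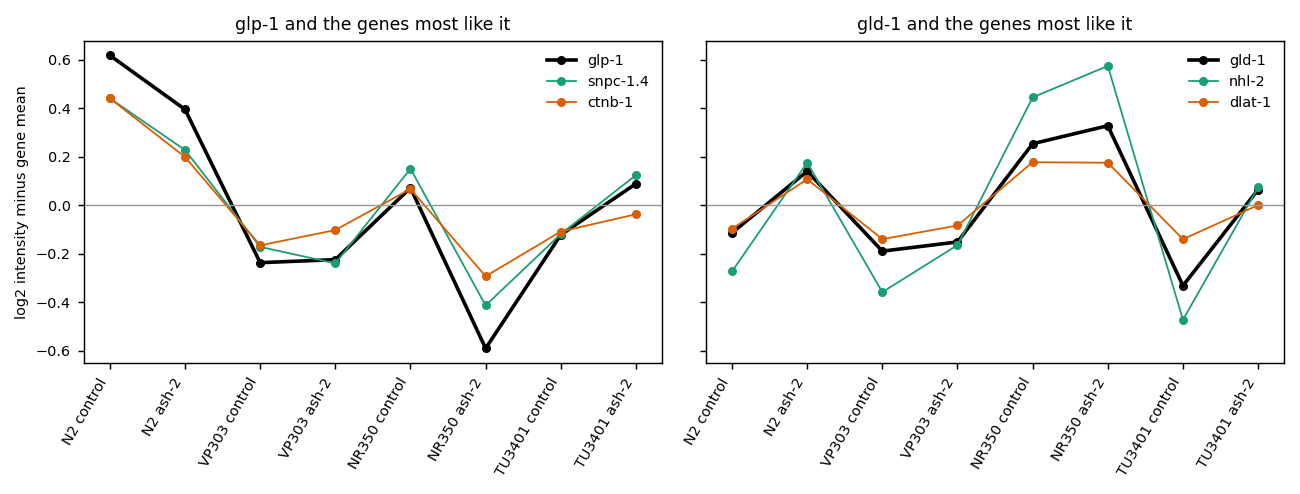
Log2 intensity minus each gene's mean on the 8 arrays for glp-1 with snpc-1.4 and ctnb-1 (left) and gld-1 with nhl-2 and dlat-1 (right); lines join arrays as a guide to the eye. The glp-1 group is highest on the N2 control array and lowest on the NR350 array labelled ash-2, and gld-1 and nhl-2 are highest on the NR350 array labelled ash-2.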

How the data were processed

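The authors deposited normalized signal values, an intensity on a linear scale for every feature of each array. The series' design text names Affymetrix GeneChip Command Console 2.0 and GeneSpring GX 11.0.2, and RMA is credited to the submitters' processing notes; its version, any offset and the build behind the array are not given here. Levels are plain log2 of the deposited intensity, without a filter. Names come from the platform annotation, and locus names from RefSeq's WBcel235 table. Of 185 listed genes 5 were not matched. The treatment was fitted with strain as a block, strains were compared in the same model, and responses of N2 and VP303 were set against those of NR350 and TU3401 (limma 3.58.1, eBayes with a trend, two-sided, R 4.3.3), on all 27792 features with Benjamini-Hochberg adjustment at 0.05. The control array of each strain paired with its treated array because they share the strain, and deviations from treatment means correlated at 0.525 to 0.839 within strains. The fit was tested on simulated data with 2-fold treatment changes, larger than those of any member. That test does not show how often smaller changes would be found. The genes, lists, tests and rules were chosen with earlier results of these data known. Genes named were the 10 members, those most like glp-1, gld-1, cgh-1 and their mean, the highest and lowest of each list for the treatment, and list genes that passed; of the last, tissue markers are given as counts with examples, and hlh-1 and elt-7 were named after their values were seen. The number of arrays limits the precision.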

Additional observations from a re-analysis of the deposited data

Results flagged for a closer look

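Among 30 sets of 4 values (the control arrays, the arrays labelled ash-2 and the 4 strain differences of each gene), 2 held a value far from the other 3, both for fbf-2. Chance gives about 1 such set in 20. On the arrays labelled ash-2, the log2 level of fbf-2 was 6.78 in VP303 and between 7.02 and 7.04 in the other strains. The fbf-2 difference between treatments was -0.21 in NR350 and between 0.04 and 0.08 in the other strains.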

How the results depend on the processing

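For the treatment, 0 members passed under every alternative run, the fit with no strain block included. Leaving out 1 strain turned the sign of 4 means, whose ranges were -0.291 to 0.000179 for glp-1 (highest without NR350), -0.0462 to 0.0520 for fbf-2 (highest without NR350), -0.00737 to 0.130 for car-1 (lowest without N2) and -0.0789 to 0.0191 for ife-1 (highest without TU3401). At 1.5-fold, 1 member (glp-1) passed in NR350. Between NR350 and N2, 2 members (glp-1 and gld-1) passed under quantile normalization and 0 without a variance trend, where glp-1 (-0.77) had a limma adjusted p of 0.159. Without a trend 0 members passed in the other 2 pairs either, gld-1 at 0.46 (adjusted p = 0.11) and -0.42 (adjusted p = 0.107). Between TU3401 and NR350, 2 members (gld-1 and cgh-1) passed under quantile normalization and at a threshold of 0.10. Leaving out 1 strain or 1 array, the latter chosen after seeing the data, gave glp-1 from -1.10 to -0.44, and gld-1 from 0.36 to 0.56 against VP303 and from -0.56 to -0.29 for TU3401 minus NR350, with 0 to 1 members called in each pair. Quantile normalization turned car-1 (0.0382 for VP303 and 0.0513 for TU3401 minus N2), fbf-2 (0.0591, TU3401 minus N2), fbf-1 (0.0406) and nos-3 (-0.0247), both TU3401 minus NR350. The gap between the responses of N2 and VP303 and those of NR350 and TU3401 turned its sign for 8 members when 1 strain was left out, with ranges of -0.316 to 0.557 for glp-1, -0.0467 to 0.248 for fbf-2, -0.251 to 0.0716 for gld-1, -0.275 to 0.217 for gld-3, -0.343 to 0.144 for nos-3, -0.0641 to 0.159 for cgh-1, -0.0890 to 0.323 for car-1 and -0.0821 to 0.212 for ife-1. Of these gld-1, gld-3 and nos-3 turned without VP303 (0.0185, 0.217 and 0.144) and without TU3401 (0.0716, 0.0853 and 0.112), glp-1 and fbf-2 without NR350, cgh-1 and car-1 without N2, and ife-1 without TU3401. None of the turned values passed in either fit, and the cause was not tested. Over all features the calls ranged from 0 to 25 for the treatment, 0 to 56 for the class gap, 42 to 283 for VP303 and 1351 to 2921 for NR350 against N2, 39 to 346 for TU3401 against N2, and 805 to 2166, 126 to 861 and 1240 to 2974 for NR350 and TU3401 against VP303 and TU3401 against NR350. Of 82 strain differences of list genes that passed, 41 did so under every alternative that kept all arrays or left out a whole strain, and 35 were lost without a variance trend. Averaging several features per gene could not change a value, since each member has 1 feature. Dimness limits ife-1.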

Other observations

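Sperm genes were near the lower end of the scale on all arrays. Of 14 sperm markers 13 averaged under an intensity of 32, the exception being the transcription factor gene spe-44, and their summed signal ran from 326 to 352. In limma spe-44 was 1.42-fold lower in NR350 than in N2 and 1.47-fold higher in TU3401 than in NR350. The dim spe-41 and gsp-3 were 1.14-fold and 1.16-fold higher in NR350 than in N2, and the gsp-3 call was lost under 5 of 8 alternatives. Among 12 neuron markers, the neuropeptide processing gene egl-21 stood 1.76-fold above N2 in NR350, and egl-3, egl-21 and ric-4 were lower in TU3401 than in NR350 (2.03-fold, 1.78-fold and 1.39-fold). The egl-21 and egl-3 calls were lost without a variance trend in limma, and the spe-44 call against N2 without VP303. Oocyte and eggshell genes were bright, with a summed signal from 25933 to 31603, the latter on the N2 array labelled ash-2. Of those 16 genes, none passed the limma test of the treatment, with perm-2 highest (0.30 ± 0.39, SD, n = 4) and pos-1 lowest (-0.14 ± 0.14). The CCCH zinc finger gene pos-1 was 1.42-fold lower in NR350 than in N2, and mei-2 and pie-1 were 1.54-fold and 1.52-fold higher in TU3401 than in NR350. Without a variance trend these 3 calls were lost (limma adjusted p of 0.0541, 0.0949 and 0.127). In NR350 against N2, 2 of 14 sperm markers were called higher and 1 lower. Of the 12 neuron markers 1 was higher, and of the 16 oocyte genes 1 was lower. In TU3401 against NR350, 1 sperm marker was higher and 1 lower, 3 neuron markers were lower and 2 oocyte genes higher. Of all features 7.18% and 6.74% were called in these pairs, and of those with a mean log2 above 5, 17.9% and 16.3%.

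Of 13 sex determination genes, none passed in any comparison, and their treatment differences ran from 0.31 ± 0.23 for mog-5 to -0.20 ± 0.15 for fog-1. Meiotic genes had a median treatment difference of -0.01, with msh-5 highest (0.22 ± 0.22) and htp-1 lowest (-0.39 ± 0.30). Germ cell markers lay above 0 in 11 of 12, from 0.26 ± 0.20 for csr-1 to -0.02 ± 0.10 for deps-1. Within strains, 11, 7, 9 and 11 of these 12 lay above 0 in N2, VP303, NR350 and TU3401. All 12 had a mean log2 above 5, and the median of all such features was 0.03. Of the 6 somatic gonad markers 5 lay below 0, with the gap junction gene inx-8 lowest (-0.34 ± 0.20) and ipp-5 highest (0.09 ± 0.11). By strain, 2, 4, 0 and 2 of these 6 lay above 0 in N2, VP303, NR350 and TU3401. In NR350, 2 of the 6 were called higher than in N2, the homeobox gene ceh-18 (1.52-fold) and ipp-5 (1.45-fold). Called lower was 1, lim-7 (1.36-fold). All 6 had a mean log2 above 5, and 17.9% of such features were called in that pair. The ceh-18 call was lost on log2 of the value minus 16 and without a variance trend, and the ipp-5 call on that scale, under median centring and without VP303, with limma adjusted p up to 0.102 and 0.0585. The extremes of the other treatment lists were nhx-2 (0.29 ± 0.10) and ifb-2 (-0.24 ± 0.14) for the intestine, unc-54 (0.47 ± 0.53) and mup-2 (-0.04 ± 0.12) for muscle, ric-4 (0.13 ± 0.10) and unc-64 (-0.20 ± 0.27) for neurons, and pes-10 (0.09 ± 0.12) and tbx-38 (-0.28 ± 0.22) for embryos. None of these passed in limma.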
